A study of Homo sapiens with 2 samples.

Results

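Predicted G-quadruplex sites are stretches of sequence with 4 groups of at least 3 G separated by loops of 1 to 7 bases of any kind. A G can itself serve as a loop, so a long unbroken run can hold several groups, and 8544 of the sites outside islands that are compared below had fewer than 4 separate runs. They were searched on both strands of chromosomes 1-22 of hg38, and overlapping matches were merged into 1 site. The search gave 345258 sites, of which 239697 lay over 2 kb from every GENCODE v44 start site and are described here. The other 105561 lay closer to a start and were left out. The runs were on the plus strand in 120037 of the 239697 sites and on the minus strand in 119637, and 23 sites had matches on both strands and could not be oriented. Of the oriented sites, 235238 lay outside CpG islands, 4351 lay inside an island and 85 crossed an island's edge. The rule uses sequence and start sites only and no measured value, but it was set with earlier results of these data known.

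In a G-quadruplex, a single strand rich in guanine folds back on itself, and guanines from the separate runs pair in flat squares that stack on each other. The pattern says that a strand could fold in this way and not that it does so in a cell. Such sequences are best known from telomeres and from promoters. The sites described here lie away from start sites, mostly in introns and between genes. MNase-seq, the assay used, digests chromatin with micrococcal nuclease, which cuts between nucleosomes, and sequences the DNA that nucleosomes protect.

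The cells, in normal culture and in interphase, were ARPE-19, a human line derived from the retinal pigment epithelium. The 2 samples are labelled as batches of the same cells, so there was 1 group, with no treated or untreated comparison. The deposited result is 1 list of single-base positions for the series, with no height, score or read count. Whether it was made from both batches or from 1 is not stated, and neither is the meaning of the numbers in its name, so no spread between replicates could be measured, and the read depth behind it is not given in the sources used here.

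Of its 2634347 rows, 4 were repeats, and chromosomes 1-22 carried 2558490 positions. Below, a density is the number of positions per kb of sequence, and the interval in parentheses is an exact Poisson 95% interval, which covers counting error only. A position within reach of several sites is counted at each, which the interval does not allow for. Distances run from the midpoint of a site, 5′ to 3′ along the strand that carries the G runs. What point of a nucleosome a position marks is not stated in the sources used here.

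The sequences below show what the pattern looks like. In each, lower case is the hg38 sequence of the strand that carries the runs, and capitals mark runs of 3 or more G within the site. The first 3 lay outside islands and carry 20 bases of flank on each side. They were chosen from the readout as sites with many positions either beside or on them, so their positions are a description. The first of them lay in an intron of TP73 (chr1:3676404-3676430, plus strand), which encodes a transcription factor of the p53 family. The next lay in an intron of ADARB2 (chr10:1354611-1354669, plus strand), a gene of the family of RNA-editing adenosine deaminases. The last of the 3 lay between genes (chr1:11437370-11437412, minus strand).
TP73 intron: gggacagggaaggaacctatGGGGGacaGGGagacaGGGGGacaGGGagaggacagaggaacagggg
ADARB2 intron: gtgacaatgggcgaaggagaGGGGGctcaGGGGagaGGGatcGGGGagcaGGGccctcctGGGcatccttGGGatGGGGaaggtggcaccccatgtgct
Between genes: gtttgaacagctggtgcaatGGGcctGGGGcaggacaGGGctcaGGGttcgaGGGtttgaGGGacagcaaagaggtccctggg

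The TP73 site had no position within 75 bp of its midpoint and 6 positions at 100 to 250 bp. They lay at -240, -206, -110, 116, 156 and 201 bp, 3 on either side. The ADARB2 site had 3 positions within 50 bp, at -23, 16 and 47 bp. The site between genes also had 3, at -44, 2 and 33 bp, and its next positions lay at 226 bp on the 3′ side and at -738 bp on the 5′ side. Both arrangements occurred, at sites picked for having them, so these examples do not show how common either is.

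The next 3 lay inside CpG islands and are shown with the same flanks. They are the site with the most runs among those in islands whose 31-base words at the centre and 100 bp to each side occur once in hg38, a site flanked by positions and a site covered by them, the last pair again chosen from the readout. The first lay in an intron of C20orf96 (chr20:278934-279120, plus strand). The next lay in an intron of ONECUT1 (chr15:52786836-52786858, plus strand), which encodes a homeobox transcription factor. The last lay in an intron of NFATC1 (chr18:79436748-79436780, plus strand), which encodes a transcription factor of activated T cells.
C20orf96 intron: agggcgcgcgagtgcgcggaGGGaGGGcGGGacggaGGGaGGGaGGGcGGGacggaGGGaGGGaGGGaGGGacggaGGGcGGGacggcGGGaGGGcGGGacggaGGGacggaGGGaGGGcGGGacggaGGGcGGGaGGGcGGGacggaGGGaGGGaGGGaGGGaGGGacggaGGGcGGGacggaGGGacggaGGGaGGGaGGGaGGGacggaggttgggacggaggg
ONECUT1 intron: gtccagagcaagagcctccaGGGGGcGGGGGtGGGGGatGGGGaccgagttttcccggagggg
NFATC1 intron: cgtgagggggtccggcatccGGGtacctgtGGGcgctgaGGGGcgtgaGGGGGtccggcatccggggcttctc

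The C20orf96 site, 187 bases long with 36 runs and a GC content of 80% in its 200 bp, had no position within 250 bp. Its 3 positions within 1000 bp lay at -939, -742 and -540 bp, all on the 5′ side. The ONECUT1 site had none within 75 bp and 3 at 100 to 250 bp, at -171, 180 and 207 bp. The NFATC1 site had 2 positions within 50 bp, at -31 and -5 bp.

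Some members share 1 sequence. The 239443 oriented members with determined bases around them had 192026 different sequences, and 182680 of the members had a sequence that no other member had. The 5 sequences with the most identical copies are printed because such copies are not independent sites.
5583 copies: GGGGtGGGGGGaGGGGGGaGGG
2917 copies: GGGaGGGaggtGGGGGGG
1692 copies: GGGaGGGaGGGaGGG
909 copies: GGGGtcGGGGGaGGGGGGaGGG
702 copies: GGGaGGGaggtGGGGGGGG

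The most frequent sequence, with 5583 copies, had a density of 0.124 positions per kb (0.0962 to 0.156) within 50 bp, against 2.08 in controls of the same base composition. The plain repeat with 1692 copies had 0.733 per kb (0.610 to 0.874). The sequence with 702 copies had 0 positions within 50 bp, which allows up to 0.0525 per kb. Thus 4 of the 5 had at most 0.124 positions per kb at their centre, and the plain repeat was the exception. Its 1680 copies with a control also lay below their controls, at 0.738 against 1.42 per kb. The sequences with 2917 and 702 copies lay in GC-rich surroundings, with a median of 79.5% in 200 bp. The deposited list does not say how reads that fit several places were treated, and the part of that in these low values was not tested.

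To set the sites against sequence like them, each was paired with a control on the same chromosome, in the same island class, in the same 2% bin of GC content over 200 bp and 4% bin over 2 kb, with no such pattern within 1 kb and over 2 kb from every start site. A control, which carries no such pattern, was oriented along the strand with more G in its 200 bp. Controls were found for 218374 sites outside islands and 2095 inside. None was found for 16740 outside and 2234 inside, which were richer in GC, with a median of 69% and 75.5% in 200 bp. Those unmatched sites had 1.04 positions per kb (0.989 to 1.09) within 50 bp outside islands and 0.201 (0.147 to 0.270) inside. They take no part in the comparisons below.

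Sites outside islands carried more positions at their centre than their controls and fewer at 100 to 200 bp, taken over both sides. Within 50 bp of the midpoint the density was 2.13 per kb (2.11 to 2.15) at sites and 1.75 (1.73 to 1.76) at controls. From 100 to 200 bp away it was 1.05 (1.04 to 1.06) and 1.23 (1.22 to 1.24). Not every part of that window was lower. From 180 to 170 bp on the 5′ side, sites had 1.35 per kb and controls 1.13. Far from the midpoint, at 600 to 1000 bp, the densities were 1.24 and 1.18. A position within 50 bp was present at 19.4% of sites (95% Wilson interval 19.3 to 19.6%) and at 16.1% of controls (15.9 to 16.2%).

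The log2 ratio of sites to controls, taken on each chromosome, was 0.31 ± 0.09 (SD, n = 22 chromosomes) at the centre and was above 0 on 22 of 22. At 100 to 200 bp it was -0.23 ± 0.16 and below 0 on 20 of 22. The centre set against the sites' own far flanks, less the same in controls, was 0.23 ± 0.07 and above 0 on 22 of 22 chromosomes. Chromosomes are not replicates, so no p-value was computed, and the SD says only how even a difference was along the genome.

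The largest difference lay in a narrow band. From 80 to 110 bp on either side of the midpoint, sites had 0.420 positions per kb (0.409 to 0.431) and controls 1.42 (1.40 to 1.44). The ratio was 0.295 (0.287 to 0.304), and the log2 ratio over chromosomes was -1.74 ± 0.24, below 0 on 22 of 22. This band was picked after the profile had been seen. The depletion was of like size on the 5′ side, with 0.399 per kb against 1.37, and on the 3′ side, with 0.441 against 1.47. Sites also had less GC than controls there. In the lowest bin, from 90 to 80 bp on the 5′ side, the sites' sequence was 47.7% GC and the controls' 50.9%.

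**Figure D1:**
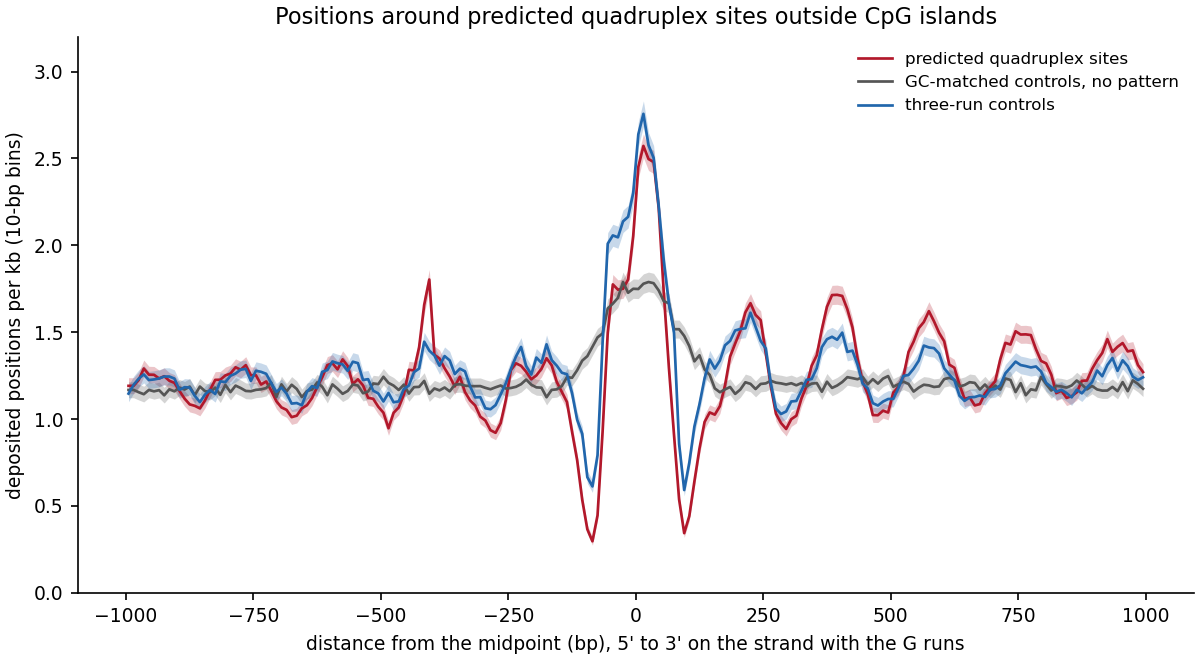
Density of deposited positions in 10-bp bins by distance from the midpoint, for 218374 sites outside islands (red), their GC-matched controls (grey) and three-run controls (blue), with shaded exact Poisson 95% intervals. The sites' density peaked at 2.57 per kb just 3′ of the midpoint, fell to 0.297 and 0.343 per kb near 90 bp on either side and then rose and fell in turn. The three-run controls also rose and fell in turn, while the GC-matched controls had a single broad hump.

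In bins of 10 bp the sites' density was highest at 10 to 20 bp 3′ of the midpoint, at 2.57 per kb (2.51 to 2.64). It was lowest from 90 to 80 bp on the 5′ side, at 0.297 (0.274 to 0.320), and nearly as low from 90 to 100 bp on the 3′ side, at 0.343 (0.319 to 0.369). Beyond these troughs it rose and fell in a regular way. Averaged over 5 bins, maxima lay at 225, 395, 575 and 755 bp on the 3′ side and at -185, -405, -585 and -775 bp on the 5′ side. The 3′ maxima reached 1.59, 1.68, 1.55 and 1.48 per kb. The 5′ maxima reached 1.29, 1.52, 1.31 and 1.28 per kb, below the 3′ maximum of the same order in each case.

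The GC-matched controls did not show this pattern. Their midpoints were chosen by GC content and not placed on a sequence feature, so the absence of regular maxima at them was not a test. Their density stayed between 1.13 and 1.79 per kb over the whole 2 kb, with its highest bin 30 to 20 bp 5′ of the midpoint. Their wide hump lay where their GC content was highest, at 52.4% beside the midpoint.

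The central peak was lopsided at the sites. The 50 bp 3′ of the midpoint had 2.44 positions per kb (2.41 to 2.47) and the 50 bp 5′ of it 1.83 (1.80 to 1.85), against 1.77 and 1.73 in controls. The log2 ratio of the 3′ to the 5′ 50 bp, less that in controls, was 0.39 ± 0.10 (SD, n = 22 chromosomes) and positive on 22 of 22. This comparison was also added after the profile had been seen. Over the wider sides of 50 to 200 bp, the same difference between 3′ and 5′ was -0.02 ± 0.09, positive on 8 of 22 chromosomes.

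Sequence with 3 runs showed a similar shape. Three-run controls, sites with 3 but not 4 runs in the same pattern and none with 4 within 1 kb, were matched in the same way to 197145 of the sites. Their density peaked at 2.76 per kb (2.68 to 2.83) in the same bin as the sites' and fell to 0.612 and 0.591 in the same troughs. Within 50 bp the three-run controls had 2.34 positions per kb (2.32 to 2.36) and the paired sites 2.15 (2.13 to 2.17). The log2 ratio there was -0.12 ± 0.08, below 0 on 21 of 22 chromosomes, the opposite sign to the comparison with controls without the pattern. In single-copy pairs, defined below, it was 0.023 ± 0.065 and above 0 on 15 of 22, so no direction against three-run controls was shown at the centre.

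From 80 to 110 bp the sites remained lower than the three-run controls, at 0.411 per kb (0.399 to 0.422) against 0.732 (0.716 to 0.747). The log2 ratio there was -0.81 ± 0.20, negative on 22 of 22 chromosomes. The lopsided centre was also less marked, with a difference of 0.18 ± 0.09, positive on 21 of 22.

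The excess at the centre also depended on the window in which GC was matched. G runs raise the GC content at the midpoint itself, to 72.1% and 70.2% in the bins on its 5′ and 3′ sides, against 52.4% in controls. When controls were matched on the GC content of 100 bp in place of 200 bp, the log2 ratio at the centre was -0.02 ± 0.09, above 0 on 8 of 22 chromosomes. The band from 80 to 110 bp was still depleted under that matching, by a log2 ratio of -1.28 ± 0.25, negative on 22 of 22 chromosomes. A higher density at the centre than in sequence of equal GC was thus not shown for all windows. The depletion beside it was present in each, but its band had been picked after the profile was seen, so it is a description.

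**Figure D2:**
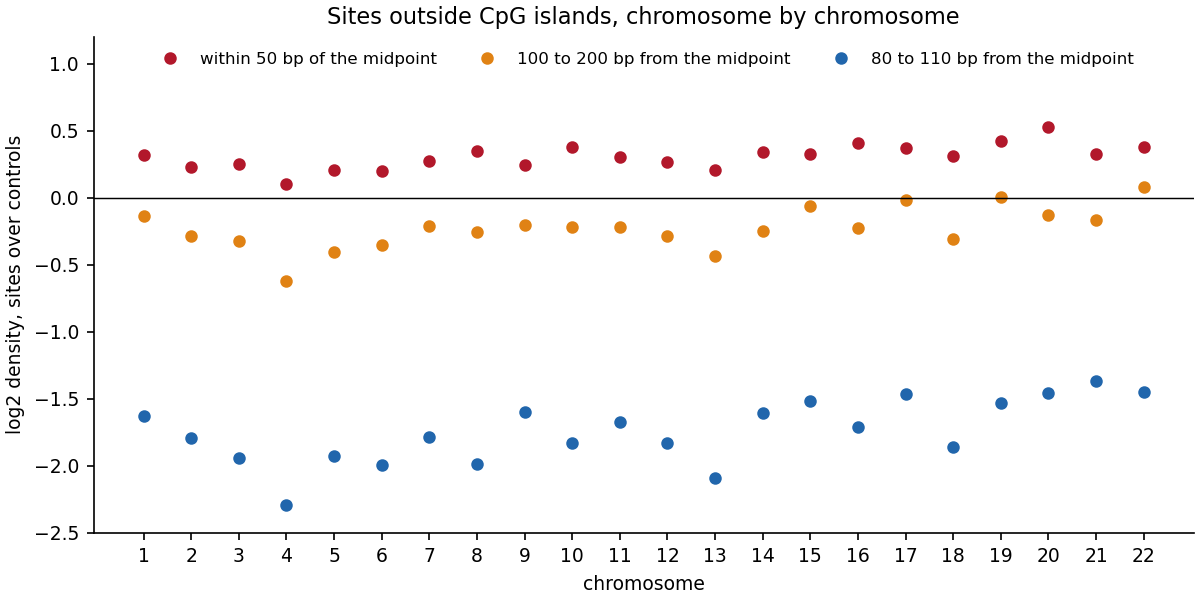
Log2 ratio of the density at sites to that at GC-matched controls on each of chromosomes 1 to 22, outside islands, within 50 bp (red), at 100 to 200 bp (orange) and at 80 to 110 bp from the midpoint (blue). Every red point lies above 0 and every blue point at -1.37 or below, while 2 of the 22 orange points lie above 0.

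The difference varied somewhat between chromosomes. At the centre it was smallest on chromosome 4, with 1.98 positions per kb at 10932 sites and 1.85 at their controls, a log2 ratio of 0.10. It was largest on chromosome 20, with 1.82 against 1.27 and a log2 ratio of 0.53. From 80 to 110 bp, chromosome 4 had the deepest depletion, at -2.29, and chromosome 21 the shallowest, at -1.37. Chromosome 4 thus had the lowest ratio in both windows. The highest ratio fell on different chromosomes, and chromosome 20, highest at the centre, had -1.45 from 80 to 110 bp.

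How often a site's sequence occurs in the reference went with large differences. The central word of a site, the 31 bases around its midpoint, occurred once in the reference at 182257 of the matched sites outside islands. Those had 2.42 positions per kb (2.40 to 2.44) within 50 bp, against 1.72 at their controls, a log2 ratio of 0.51 ± 0.07, positive on 22 of 22 chromosomes. Words in 2 to 10 copies, at 18268 sites, had 0.957 per kb (0.913 to 1.00) against 1.84. Words in over 10 copies, at 17849 sites, had 0.391 per kb (0.363 to 0.421) against 1.95, a log2 ratio of -2.32 ± 0.59, negative on 22 of 22. These classes were set by the site's word alone, and the controls were not restricted by copies. Pairs with both members restricted are given below and had a smaller ratio than the sites with a word in 1 copy.

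**Figure D3:**
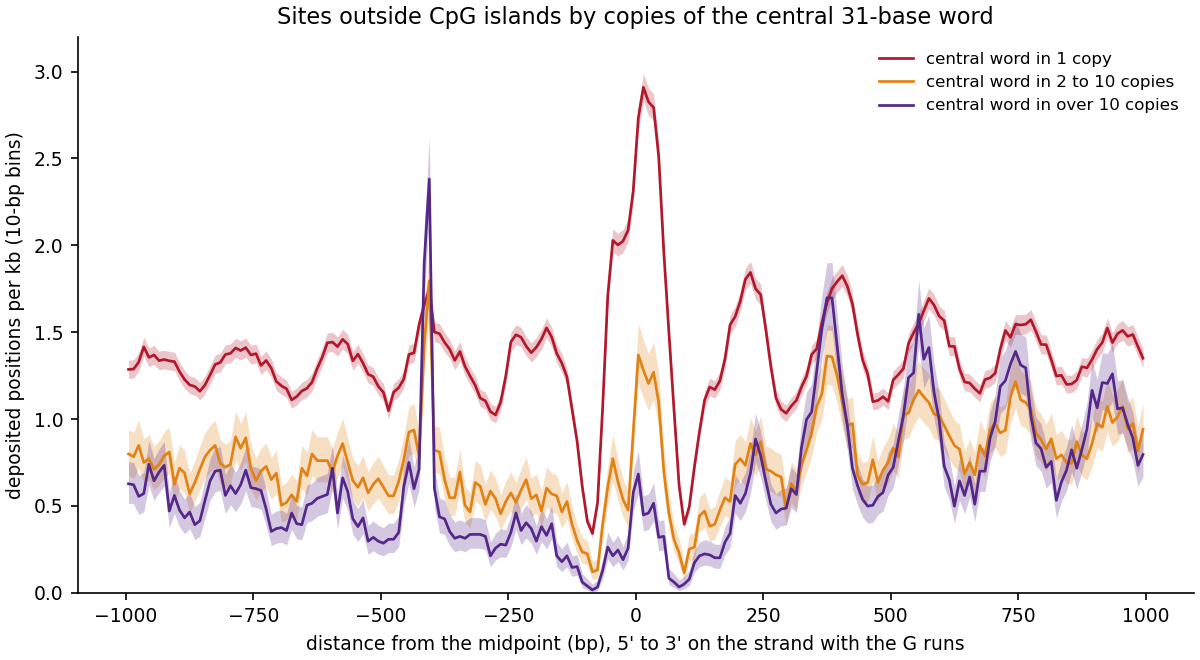
Density of deposited positions in 10-bp bins around sites outside islands whose central 31-base word occurs once (red), 2 to 10 times (orange) or over 10 times (purple) in hg38, with exact Poisson 95% intervals. Copied sites were low around the midpoint and on its 5′ side, and those with over 10 copies had their highest bin, 2.38 per kb, 410 to 400 bp on the 5′ side.

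The shape held at single-copy sites. For the 100753 pairs in which the words at the centre and 100 bp to each side occurred once, in site and control alike, sites had 2.58 positions per kb (2.54 to 2.61) within 50 bp and controls 2.06 (2.04 to 2.09). The log2 ratio at the centre was 0.33, and from 80 to 110 bp it was -1.68, with 0.539 per kb (0.521 to 0.558) at sites and 1.73 at controls. The peak stood at 3.004 per kb (2.90 to 3.11) at 10 to 20 bp and the lowest bin at 0.390 (0.352 to 0.431).

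One feature of the whole profile was sharper at copied sites. The narrow spike 410 to 400 bp on the 5′ side, 1.80 per kb over all matched sites outside islands, was 2.38 per kb (2.16 to 2.62) where the word had over 10 copies. In those sites the bins from 430 to 420 bp and from 390 to 380 bp had 0.712 and 0.437 per kb. With a word in 1 copy the same 3 bins had 1.54, 1.75 and 1.49 per kb. Sites with a word in 1 copy still held 3184 of the 3937 positions in the bin of the spike.

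Sites also differed by the length of their loops, the bases that join the runs. Among matched sites outside islands with exactly 4 runs, the 11989 in which every loop was 1 base had 0.706 positions per kb (0.660 to 0.756) within 50 bp, against 1.86 at their controls. The log2 ratio was -1.28 ± 0.52, negative on 22 of 22 chromosomes. Many of these sites were copies of 2 sequences printed above, of which 5583 and 1680 copies had a control, and are not independent. The 48545 with a loop of 4 or 5 bases as their longest had 2.24 per kb against 1.71, and the 56530 with a loop of 6 or 7 had 2.49 against 1.68, log2 ratios of 0.41 ± 0.14 and 0.58 ± 0.10. Sites with all loops of 1 to 3 bases lay below those with a longer loop by 0.77 ± 0.26 on the log2 scale, on 22 of 22 chromosomes.

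Most of that difference at the centre was not present in single-copy pairs. There the shorter loops lay below the longer ones by 0.15 ± 0.15 on the log2 scale, and 6 of 22 chromosomes went the other way. The 2142 single-copy pairs with loops of 1 base had 1.84 positions per kb and their controls 1.89. Those with a loop of 6 or 7 bases kept a log2 ratio of 0.41 ± 0.13.

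**Figure D4:**
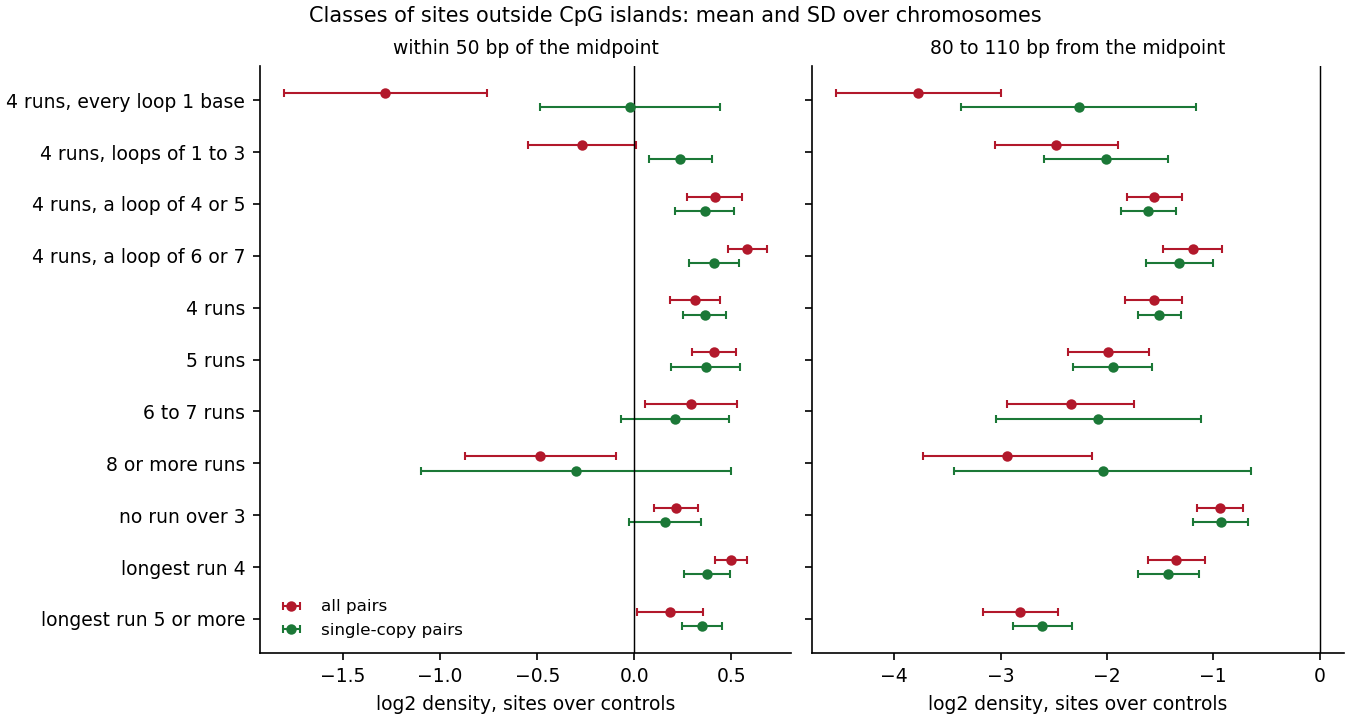
Log2 ratio of the density at sites to that at their controls for classes of sites outside islands by loop length, number of runs and longest run, within 50 bp (left) and at 80 to 110 bp (right). Points are means and bars SDs over the chromosomes that gave a value, for all pairs (red) and single-copy pairs (green); in single-copy pairs the classes lay close together at the centre, except for sites with loops of 1 base or with 8 or more runs, and further apart at 80 to 110 bp.

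The depth of the troughs followed the length of the runs, also in single-copy pairs. In these, sites with no run over 3 bases had 0.878 positions per kb at 80 to 110 bp, a log2 ratio of -0.93 ± 0.26 to controls. Sites whose longest run was 4 bases had 0.655 per kb and a ratio of -1.42 ± 0.29. Those with a run of 5 or more bases had 0.287 per kb and a ratio of -2.61 ± 0.28. Each ratio was negative on 22 of 22 chromosomes, and the classes were further apart than their SDs. Loops showed a like order, from -2.01 ± 0.58 where all were 1 to 3 bases to -1.32 ± 0.32 where the longest was 6 or 7.

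By number of runs, the classes differed little at the centre up to 7 runs. Sites of 5 or more runs and sites of 4 runs differed by a log2 of -0.01 ± 0.15, positive on 12 of 22 chromosomes. The 6561 sites with 8 or more runs were lower, with 1.27 positions per kb (1.19 to 1.36) against 1.80 at controls, a ratio of -0.48 ± 0.39. In the 1799 single-copy pairs of that class the ratio was -0.30 ± 0.80, which its SD did not set apart from 0. From 80 to 110 bp, each class by number of runs lay below its controls.

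Values on both sides of the rule's limit of 7 bases per loop were close. In a search with loops of up to 12 bases, sites of 4 runs whose longest loop was 6 or 7 bases had 2.53 positions per kb within 50 bp and 0.612 at 80 to 110 bp. Those with a longest loop of 8 or 9, just outside the rule, had 2.43 and 0.628.

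By gene part, ratios differed by less than their SDs over all pairs. Sites in introns of protein-coding genes, 43.8% of the matched sites outside islands, had a log2 ratio of 0.29 ± 0.13 at the centre, and sites between genes, 38.9%, had 0.33 ± 0.11. In single-copy pairs these were 0.24 ± 0.12 and 0.41 ± 0.14, a gap larger than the SD of either. In introns, runs on the coding strand gave 0.34 ± 0.15 and runs on the template strand 0.23 ± 0.15, a gap smaller than the SD of either. Single-copy pairs split by strand gave 0.25 ± 0.20 and 0.23 ± 0.14. The 1246 sites in coding exons had 0.12 ± 1.14, on too few positions (226 at sites, 214 at controls) for a direction.

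The ratio at the centre also varied with the GC content around the site. It was largest where the 200 bp had under 40% GC, at 0.91 ± 0.33, although both densities were low there (0.979 and 0.535 per kb). From 40 to 50% GC it was 0.12 ± 0.20, and from 50 to 60% it was 0.48 ± 0.07. In single-copy pairs the same 3 classes had 0.74 ± 0.65, 0.48 ± 0.19 and 0.33 ± 0.10. Distance from the start site, a neighbouring site within 1 kb and the strand of hg38 gave ratios from 0.27 to 0.34, apart from the 11079 sites over 100 kb from a start, at 0.03 ± 0.56. In single-copy pairs that class had 0.39 ± 0.43 over 21 chromosomes and was no exception.

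At some sites the centre held more than 1 position. This was so at 1.86% of sites outside islands (95% Wilson interval 1.80 to 1.92%) and at 1.33% of controls (1.28 to 1.38%). Where there were exactly 2, they lay a median of 35 bp apart at sites and at controls alike.

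Inside CpG islands, densities were low throughout, and sites again had more positions at the centre. Within 50 bp there were 130 positions at 2095 sites, 0.621 per kb (0.518 to 0.737), and 61 at the controls, 0.291 per kb (0.223 to 0.374). The pooled ratio was 2.13 (1.56 to 2.94), by counting error alone. A position within 50 bp was present at 5.87% of sites (95% Wilson interval 4.94 to 6.96%) and at 2.77% of controls (2.15 to 3.56%).

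That excess was uneven along the genome. A log2 ratio needs at least 1 position at sites and 1 at controls, which 16 chromosomes had. Over these it was 0.76 ± 1.14, higher at sites on 11 and lower on 4, so the spread was larger than the mean. Of the 6 chromosomes left out, 5 had positions at sites only and 1 at controls only. In the 854 single-copy pairs the pooled ratio was 1.62 (1.06 to 2.51), but the mean over the 11 chromosomes that gave a value was -0.12 ± 1.04, higher at sites on 3 and lower on 6. Against the density expected from GC content in place of controls, the mean over chromosomes was -0.86. Three-run controls were found for 995 sites inside islands, and against these the pooled ratio was 1.23 (0.790 to 1.93). The mean over the 13 chromosomes that gave a value was -0.001 ± 1.35, higher at sites on 4 and lower on 5. The difference between inside and outside, 0.46 ± 1.15, was likewise within its spread.

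On their sides, sites inside islands had as many positions as controls or more. From 100 to 200 bp the densities were 0.425 per kb (0.365 to 0.492) and 0.308 (0.257 to 0.366), a log2 ratio of 0.45 ± 0.97 over 21 chromosomes. At 600 to 1000 bp they were 1.01 and 0.805 per kb, so the sites' surroundings also held more positions. From 80 to 110 bp, 24 positions at sites and 33 at controls gave a ratio of 0.727 (0.411 to 1.27), whose interval holds 1. The 5′ side had 8 against 21, a ratio of 0.381 (0.146 to 0.895), and the 3′ side 16 against 12, a ratio of 1.33 (0.592 to 3.09).

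**Figure D5:**
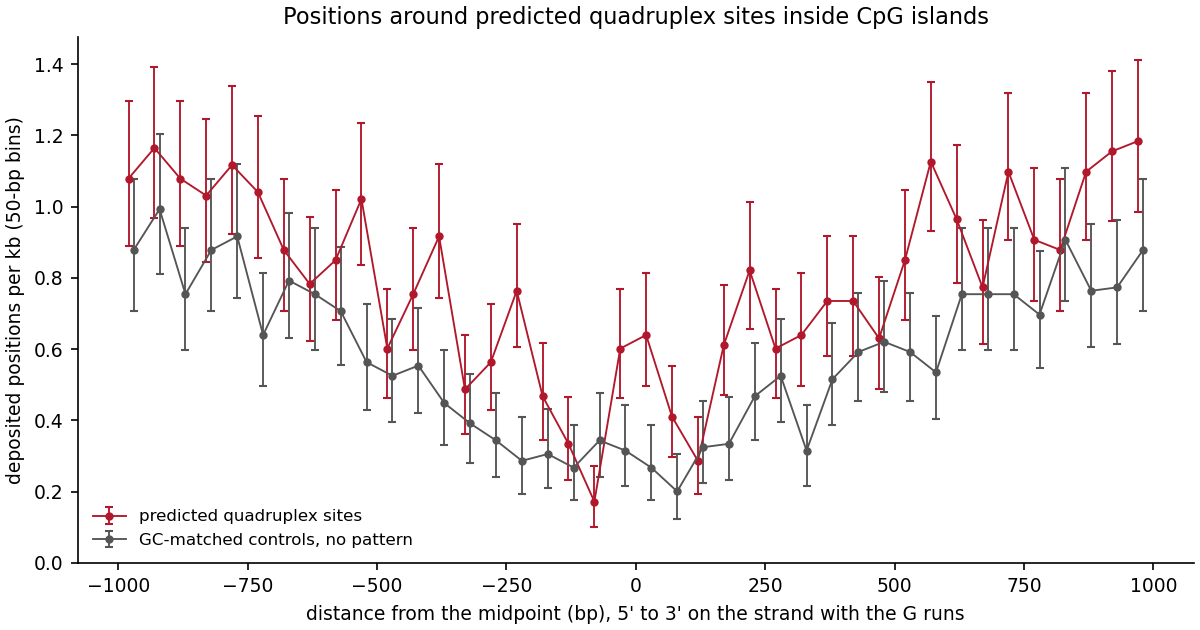
Density of deposited positions in 50-bp bins by distance from the midpoint, for 2095 sites inside CpG islands (red) and their GC-matched controls (grey), with exact Poisson 95% intervals. The controls sink toward the midpoint, while the sites have bins at 0.601 and 0.640 per kb on either side of it, between 0.172 per kb at 100 to 50 bp on the 5′ side and 0.286 at 100 to 150 bp on the 3′ side.

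In 50-bp bins the sites inside islands had a central rise, with the low bin on the 3′ side lying further from the midpoint than that on the 5′ side. The 2 central bins had 0.601 and 0.640 positions per kb. The bin from 100 to 50 bp on the 5′ side had 0.172 (0.102 to 0.272), against 0.344 (0.241 to 0.476) at controls. The bin from 50 to 100 bp on the 3′ side went the other way, with 0.411 (0.297 to 0.553) at sites and 0.200 (0.124 to 0.306) at controls. From 100 to 150 bp on the 3′ side the values were 0.286 and 0.325. Beyond the low bins, those from 250 to 200 bp on the 5′ side and from 200 to 250 bp on the 3′ side had 0.764 and 0.821 per kb, against 0.286 and 0.468 at controls.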

How the data were processed

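MNase-seq positions came from 1 deposited list for a series of 2 batches of ARPE-19 cells. Per the file headers, it gives a chromosome, start and end on hg38, and each row is 1 bp wide, so it was read as 0-based point positions. The submitters' processing notes name Bowtie2, hg38 and GRCh38. The caller, the fragment-length limits, the threshold and the pooling of batches are not given in the sources used here. No other per-sample column was left unused (0).

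Sites, CpG islands (over 500 bp, 55% GC, observed to expected CpG over 0.65, without repeat masking) and 31-base word copies were computed from the hg38 reference. Start sites and genes were GENCODE v44. Densities, exact Poisson and Wilson 95% intervals and log2 ratios per chromosome used numba 0.67.0, numpy 2.4.6, pandas 2.3.3 and scipy 1.17.1 under Python 3.11.15, tested on simulated data. A chromosome with 0 positions in either group gave no log2 ratio and was left out of that mean.

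The members and lists were chosen with earlier results of these data known. Sites named singly had single-copy words and were the 3 per island class with the most runs, the most positions at 100 to 250 bp with none within 75 bp, or the most within 50 bp. A subset of these is printed, chosen after their values were seen. Alternatives changed the GC windows, the controls, the loops, the islands, the centre's width, the start distance, the handling of close positions and the regions used.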

Additional observations from a re-analysis of the deposited data

Results flagged for a closer look

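Chromosome X took no part in the comparisons above, which used chromosomes 1-22. Its predicted sites outside islands, 11532 in number and chosen in the same way, had 1142 positions within 50 bp of the midpoint, or 0.990 per kb (exact Poisson 95% interval 0.934 to 1.05), against 0.923 (0.868 to 0.980) at GC-matched controls, so these intervals overlap. It is listed here because it is a signal in data that the comparisons do not use. From 100 to 200 bp the X sites had 0.413 per kb (0.387 to 0.440) and their controls 0.615 (0.583 to 0.648), and at 600 to 1000 bp 0.544 and 0.525.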

How the results depend on the processing

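Each of 11 results was recomputed under up to 18 other settings, 188 values in all: 155 stayed within 1 SD over chromosomes of the reported value. The sign changed in 28, of which 6 concerned results whose mean exceeded its SD (centre, and centre over far flanks, outside islands). The other 22 concerned means within their SD: 9 for the number of runs, and 4, 1, 4 and 4 for the centre and sides inside islands, inside less outside and 3′ over 5′ side. All are log2 differences. Matching GC over 100 bp changed the centre outside islands to -0.018, the centre over far flanks to -0.10 and the 80 to 110 bp band to -1.28. Three-run controls gave -0.12, -0.14 and -0.81 for these, and 0.18 for the lopsided centre. Single-copy words gave -0.15 for short against longer loops and 0.28 for the lopsided centre. Single-copy words with 100-bp GC matching gave -0.047 (centre), -0.10 (over far flanks), -0.038 (loops), -1.26 (band) and 0.29 (lopsided centre). With three-run controls they gave 0.023, 0.0049, -0.074, -0.64 and 0.10 for the same 5. Loops of 1 to 12 gave 0.49 (centre), -0.059 (sides), 0.37 (over far flanks), -0.26 (loops), -0.24 (runs), -1.31 (band) and 0.28 (lopsided centre). A centre of 75 bp gave 0.13 and 0.056 over far flanks. The GC expectation gave 0.35 (over far flanks) and 0.15 (3′ over 5′ side) outside islands, and inside them -0.86 (centre), -1.64 (sides) and -1.24 (inside less outside). The cause of these shifts was not tested. The 80 to 110 bp band, picked after the profile had been seen, was depleted under every setting run, from -1.88 to -0.64. Leaving out a replicate was not possible with 1 list. Read depth is unknown, and inside islands a ratio at the centre came from 16 chromosomes, and from 11 in single-copy pairs, since the others had 0 positions in a group.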
